A study of Mus musculus with 26 samples.

Results

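The genes described here are 35 genes of glucose use and low-oxygen response, chosen by name: 5 membrane carriers of glucose and lactate, 8 hexokinases and phosphofructokinase-step enzymes, the 9 enzymes from glucose phosphate to lactate, 9 hypoxia genes and 4 pentose phosphate enzymes. They were chosen with earlier results of these data known, so the shares of all genes given beside their counts are for description only. They matched 36 of the 55487 gene identifiers in the count table, because Aldoa (ENSMUSG00000030695) shares its symbol with a second identifier, ENSMUSG00000114515, which held 230 counts over 26 libraries and was left aside. All 35 passed the filter on low counts.

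RNA was sequenced from macrophages of the mouse lung after lipopolysaccharide (LPS), a bacterial wall component that inflames the lung, was placed in the trachea. Bone marrow-derived macrophages (BM), which come into the lung with inflammation, were taken at day 1 (n = 5), day 3 (n = 4) and day 7 (n = 3) after LPS. Resident alveolar macrophages (AM), the cells that line the air spaces, were taken without LPS (day 0, n = 3) and at day 1 (n = 4), day 3 (n = 3) and day 7 (n = 4) after it. The labels name no strain, genotype, sex or sorting gate. The descriptions of the AM day 0 libraries call them young, and no age is given for the others. Whether replicates came from different animals is not stated, so a p-value here measures library-to-library spread, part of which may be technical.

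Glycolysis splits glucose to pyruvate in the cytosol, and lactate dehydrogenase turns that pyruvate into lactate, which leaves the cell through monocarboxylate carriers. The pentose phosphate pathway branches off at glucose 6-phosphate and yields NADPH, which phagocytes use for the oxidative burst and for lipid synthesis. The transcription factor HIF-1 is held down by prolyl hydroxylases when oxygen is plentiful. It switches on many glycolytic genes at low oxygen, and in LPS-treated macrophages it is known to act at normal oxygen too.

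Total counts ran from 9176202 to 80816742 per library, and levels are given in CPM, the counts of a gene scaled to a common library total after TMM correction. The labelled cell types were checked against 16 alveolar macrophage markers, none of them at 0 in a whole group, whose summed level in BM was 1341 to 2057 CPM on day 1, 2415 to 4642 on day 3 and 3856 to 17587 on day 7, against 20720 to 36153 in AM libraries. Among BM day 7 libraries BM_day7.3 stood apart, with 3856 CPM of these markers against 16683 in BM_day7.1 and 17587 in BM_day7.2. BM_day3.1 held 27619 CPM of 11 endothelium and fibroblast markers, against 104 to 386 in the other BM day 3 libraries, and had the fewest genes at 1 CPM or more, 7419. Summed RNA of Y-linked genes in BM was 7.75 to 38.4 CPM on day 1, 0.0479 to 169 on day 3 and 0.103 to 3.81 on day 7. In AM it was at most 4.09 CPM on day 7 and 146 to 227 on days 0 to 3, so day and sex cannot be told apart there. Library names carry 1 prefix for AM day 0, another for BM day 1 and one more for all other groups. A difference between prefixes therefore cannot be told apart from the group in comparisons with AM day 0 or BM day 1.

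The promoters of these genes are shown because many hold ACGTG, 1 of the 2 forms of the core of the HIF binding site; the other form is GCGTG. The 250 bases before the start of transcription were read from RefSeq (GRCm38.p6) for 34 of the 35 genes, in 47 promoters. ACGTG, on either strand, was present in 21 of the 47 (44.7%) and in 16.6% of all 32851 promoters of the same length. Counted by gene, 18 of 34 members (52.9%) and 18.5% of 27025 genes had it in at least 1 promoter. By role it was in 3 of 4 carrier promoters, 6 of 13 at the hexokinase and phosphofructokinase steps, 6 of 15 in the chain to lactate, 6 of 10 of the hypoxia genes and 0 of 5 of the pentose phosphate genes. GCGTG was in 26 of the 47 member promoters (55.3%) and in 28.2% of all, and in 4 of the 5 pentose phosphate promoters. Either form was in 38 of the 47 (80.9%) and in 38.6% of all, with 8 of 10 hypoxia and 4 of 5 pentose phosphate promoters among them. The longer word CACGTG, which holds ACGTG on both strands, was in 6 member promoters (12.8%) and in 6.02% of all. Member promoters were richer in G and C, with a median of 61.2% against 52.4% for all promoters, and the share of the word was not adjusted for that. The sequences below run 5′ to 3′ towards the gene. Capitals mark ACGTG, or CACGT where it lies on the other strand, and CACGTG where both overlap. Slc2a1 lies on chromosome 4 (chr4:119108495-119108744, plus strand), Hk2 on 6 (chr6:82774455-82774704, minus), Ldha on 7 (chr7:46845554-46845803, plus), Pgk1 on X (chrX:106186850-106187099, plus), Slc16a3 on 11 (chr11:120948817-120949066, plus), Bnip3 on 7 (chr7:138909507-138909756, minus) and Taldo1, which has no ACGTG and 1 GCGTG, on 7 (chr7:141391910-141392159, plus). GCGTG is left in lower case.
Slc2a1: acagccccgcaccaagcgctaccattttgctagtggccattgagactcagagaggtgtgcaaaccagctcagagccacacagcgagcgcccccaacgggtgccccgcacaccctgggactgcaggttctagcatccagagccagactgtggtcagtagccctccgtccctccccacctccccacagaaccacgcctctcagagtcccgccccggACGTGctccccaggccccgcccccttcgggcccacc
Hk2: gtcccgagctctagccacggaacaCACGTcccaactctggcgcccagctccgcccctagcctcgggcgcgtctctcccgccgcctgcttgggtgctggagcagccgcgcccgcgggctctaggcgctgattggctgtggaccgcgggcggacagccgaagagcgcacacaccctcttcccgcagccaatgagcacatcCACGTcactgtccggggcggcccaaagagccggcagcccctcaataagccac
Ldha: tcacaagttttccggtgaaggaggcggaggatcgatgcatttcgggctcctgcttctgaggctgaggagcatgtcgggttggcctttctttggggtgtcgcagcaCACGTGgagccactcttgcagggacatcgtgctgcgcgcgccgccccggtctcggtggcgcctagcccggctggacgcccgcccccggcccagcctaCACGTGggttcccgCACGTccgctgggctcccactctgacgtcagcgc
Pgk1: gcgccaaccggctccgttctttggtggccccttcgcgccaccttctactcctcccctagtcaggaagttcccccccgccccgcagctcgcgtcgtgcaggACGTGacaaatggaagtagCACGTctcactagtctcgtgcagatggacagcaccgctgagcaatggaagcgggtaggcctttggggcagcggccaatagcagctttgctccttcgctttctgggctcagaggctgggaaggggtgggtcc
Slc16a3: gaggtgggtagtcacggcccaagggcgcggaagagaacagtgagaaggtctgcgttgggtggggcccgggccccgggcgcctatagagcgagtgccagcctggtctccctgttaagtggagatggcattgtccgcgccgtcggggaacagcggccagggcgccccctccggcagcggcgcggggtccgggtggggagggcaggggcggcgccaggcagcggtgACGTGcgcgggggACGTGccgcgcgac
Bnip3: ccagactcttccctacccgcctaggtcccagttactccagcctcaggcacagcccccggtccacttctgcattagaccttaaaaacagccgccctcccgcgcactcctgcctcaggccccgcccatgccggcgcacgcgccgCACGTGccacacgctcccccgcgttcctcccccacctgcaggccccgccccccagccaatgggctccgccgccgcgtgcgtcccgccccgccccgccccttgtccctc
Taldo1: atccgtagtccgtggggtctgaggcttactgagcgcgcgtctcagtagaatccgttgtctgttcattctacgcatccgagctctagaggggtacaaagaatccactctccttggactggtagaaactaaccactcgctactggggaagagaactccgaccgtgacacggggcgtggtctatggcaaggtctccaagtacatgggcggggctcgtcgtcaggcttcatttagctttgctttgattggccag
Ldha held 3 separate places with ACGTG in this window and 0 in its other RefSeq promoter (chr7:46846832-46847081), Hk2, Pgk1 and Slc16a3 held 2 each, and Slc2a1 and Bnip3 held 1 each. A match describes letters and does not show that a factor binds there.

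In AM, 10 of the 22 carriers and glycolytic enzymes rose at day 1 and 10 at day 3 against day 0, and 10 fell at day 7 against day 3, Slc2a1, Hk3, Pfkl, Pgk1, Eno1 and Pkm each time among them. The cytokine Mif moved with them, with less stable calls that are given below. A gene was called when edgeR's quasi-likelihood test gave an adjusted p under 0.05 over the 17143 genes tested. At AM day 1 against day 0, 12 of the 35 members were called, 11 higher (3.22% of all genes) and 1 lower (3.06% of all genes). At AM day 3 against day 0 the count was 11 higher (1.78% of all genes) and 0 lower (0.723%). AM day 3 against day 1 gave 2 higher (0.624%) and 0 lower (0.21%), and AM day 7 against day 3 gave 0 higher (0.233%) and 11 lower (1.35%). AM day 7 against day 0 gave 0 higher (0.408%) and 0 lower (0.268%) with edgeR and 0 with DESeq2, with 4 members at an unadjusted p under 0.05. The median log2 fold change of the members was 0.44 at AM day 1 against day 0, 0.92 at day 3 against day 0 and −0.92 at day 7 against day 3. Over all genes tested it was −0.20, −0.07 and 0.01 in the same comparisons.

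In BM, day 3 against day 1 gave 11 members higher (10.6% of all genes) and 6 lower (15.2%), and day 7 against day 3 gave 0 higher (3.09%) and 10 lower (0.898%). BM against AM at day 1 gave 8 members higher (15.2%) and 5 lower (13.8%). The 13 are 37.1% of the members, near the 29% of all genes called there. All 13 stayed called with Y-linked RNA as a covariate. That RNA was 7.75 to 38.4 CPM in BM day 1 and 191 to 217 in AM day 1, with no overlap. The covariate therefore cannot separate sex from cell type there. Gapdh, whose reads are shared with copies, is 1 of the 8 higher in BM at day 1 and 1 of the 6 lower at BM day 3 than at day 1. BM against AM at day 3 gave 0 higher (0.997%) and 0 lower (2.99%), with 7 members at an unadjusted p under 0.05 and 2 called by DESeq2. At day 7 it gave 1 higher (1.48%) and 1 lower (0.286%), with 12 uncalled members at an unadjusted p under 0.05 and 6 members called by DESeq2. Whether BM and AM changed differently was tested in the same edgeR fit. From day 3 to day 7 it gave 0 higher (0.338%) and 0 lower (0.0233%), with 4 at an unadjusted p under 0.05 and 0 called by DESeq2, and from day 1 to day 7 it gave 0 higher (4.61%) and 1 lower (2.93%). In these bulk libraries fewer cells of a type and less RNA per cell cannot be told apart.

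**Figure D1:**
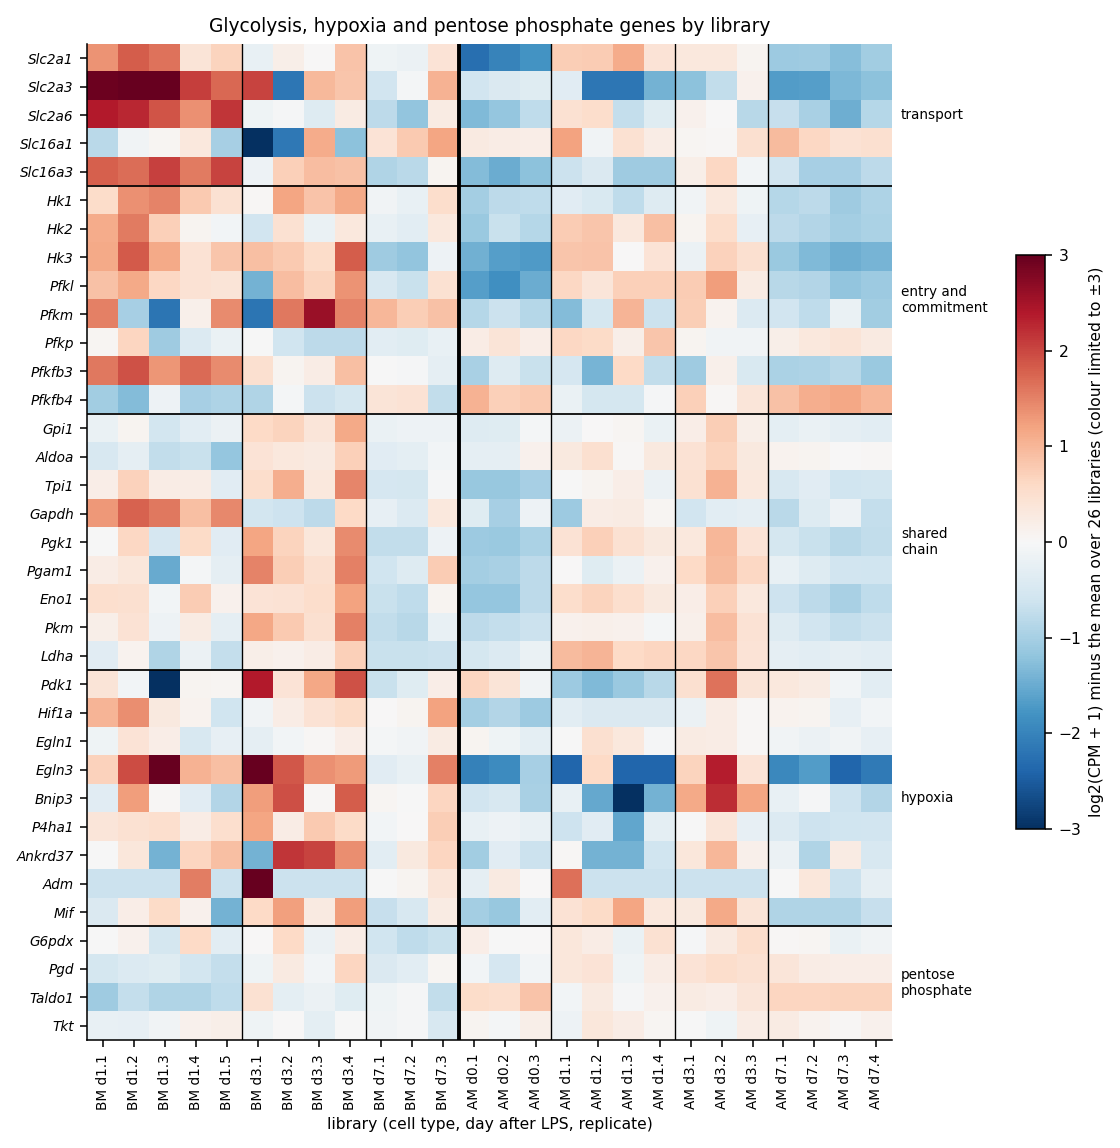
Heat map of the 35 members (rows, by role) in the 26 libraries (columns, BM left of AM and days in order), coloured by log2(CPM + 1) minus the gene's mean over all libraries. Of the 9 chain genes, 6 have their highest group mean in BM day 3, while the carriers Slc2a3, Slc2a6 and Slc16a3 are highest in BM day 1.

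Among the carriers, Slc2a1 encodes GLUT1, the main inducible glucose transporter of macrophages. Its levels in BM were 337, 468, 409.9, 173 and 208 CPM at day 1, 112, 149, 132 and 240.4 at day 3 and 121, 117 and 174 at day 7. In AM they were 26.6, 32.2 and 37.3 CPM at day 0, 222, 225, 285 and 175 at day 1, 164, 164 and 138 at day 3 and 60.8, 61.8, 53.5 and 62.7 at day 7. Every AM library after LPS was above every day 0 library, every BM day 7 library was above every AM day 7 library, and BM and AM overlapped at days 1 and 3. The rise in AM was 2.82 ± 0.31 log2 (± SE) at day 1 (edgeR adjusted p = 5.42e-07) and 2.28 ± 0.31 at day 3 (edgeR adjusted p = 2.22e-05). Slc2a1 then fell in AM at day 7 against day 3, with a log2 fold change of −1.38 ± 0.28 (edgeR adjusted p = 0.00481). It was higher in BM than in AM at day 7, by 1.20 ± 0.28 (edgeR adjusted p = 0.0156), and this call was lost without BM_day7.3 (0.98 ± 0.30, edgeR adjusted p = 0.195).

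Slc2a3 (GLUT3, a high-affinity glucose transporter) was near 0 in AM and present in BM day 1. It had 33.4, 43.2, 38.7, 18.01 and 13.8 CPM in BM day 1, against 2.58, 0, 0 and 0.693 in AM day 1, with no overlap. The difference was 5.14 ± 1.40 log2 (edgeR adjusted p = 0.00767). Slc2a6 (GLUT6, a lysosomal transporter raised by LPS in mouse macrophages) had 275, 251, 193, 135 and 232 CPM in BM day 1, against 71.9, 74.9, 31.3 and 40.02 in AM day 1. Again no library overlapped, and Slc2a6 was higher in BM by 1.99 ± 0.32 log2 (edgeR adjusted p = 3.28e-05). In BM day 3 it was 46.9, 50.8, 39.3 and 62.02 CPM, lower than BM day 1 by a log2 fold change of −2.13 ± 0.33 (edgeR adjusted p = 3.21e-05). Its rise at AM day 1 against day 0, 1.18 ± 0.36, stood near the threshold (edgeR adjusted p = 0.0474) and was lost in 21 of 36 alternatives.

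Slc16a3 encodes MCT4, the carrier that exports lactate from glycolytic cells. Its levels in BM were 501, 463, 600.4, 424 and 591 CPM at day 1, 128, 237, 274 and 264 at day 3 and 76.96, 81.4 and 152 at day 7. In AM they were 58.2, 50.9 and 60.7 CPM at day 0, 91.9, 107, 67.7 and 68.1 at day 1, 163, 223 and 135 at day 3 and 96.3, 71.9, 71.9 and 83.5 at day 7. Each BM day 1 library exceeded every library of the other groups, and in AM day 3 all libraries were above all AM libraries of other days. The day 1 difference between BM and AM was 2.62 ± 0.24 log2 (edgeR adjusted p = 5.70e-09). At day 7 it was 0.35 ± 0.25 and not called (edgeR adjusted p = 1). The change of the BM to AM difference between those days was itself called, −2.27 ± 0.35 log2 (edgeR adjusted p = 7.71e-05). That call held in all 35 alternatives, none of which can separate BM day 1 from its own library-name prefix. In AM the gene was higher at day 3 than at day 0 by 1.62 ± 0.28 (edgeR adjusted p = 4.57e-04) and lower at day 7 than at day 3, −1.10 ± 0.25 (edgeR adjusted p = 0.016; lost in 8 of 37 alternatives). Slc16a1 (MCT1, which carries lactate in either direction) was called in no comparison, with 8.33 to 22.3 CPM in BM day 1, against 16.5 to 42.3 in AM day 1. On the scale of CPM per kilobase of exon, Slc16a3 made up 94.1% to 98.3% of the sum of both carriers in BM day 1, against 64.4% to 84.3% in AM day 1.

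**Figure D2:**
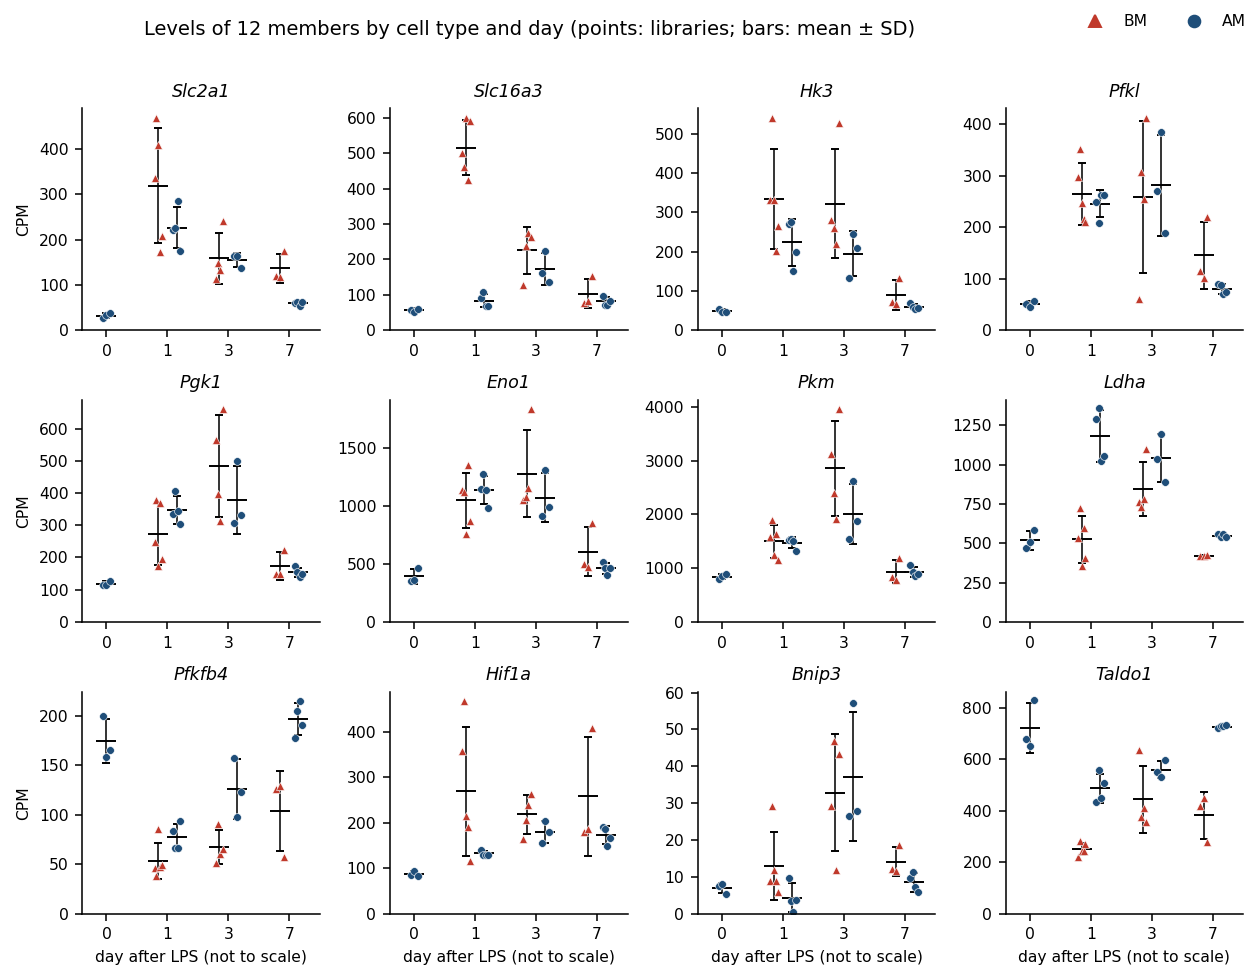
CPM of 12 members by day after LPS, 1 point per library (triangles BM, left; circles AM, right), with bars for the mean ± SD of each group. Slc2a1, Hk3, Pfkl, Pgk1, Eno1 and Ldha are higher in all AM day 1 libraries than in all AM day 0 libraries, and Slc16a3 is highest in BM day 1.

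At the entry to the pathway, hexokinases phosphorylate glucose and trap it in the cell. Hk2, a hexokinase that binds mitochondria and is induced by LPS, had 272, 288, 199 and 300.1 CPM in AM day 1, against 73.1, 101 and 88.6 in AM day 0. The groups did not overlap, and the rise was 1.60 ± 0.32 log2 (edgeR adjusted p = 0.00149). In AM day 3 it was 169, 233 and 135 CPM, a difference of 1.03 ± 0.33 log2 to day 0 that was not called (edgeR adjusted p = 0.116). In BM, Hk2 was 347, 476, 263, 171 and 151 CPM at day 1, 107, 220.4, 139 and 199 at day 3 and 137, 129 and 199.8 at day 7. The day 1 libraries spread widely and overlapped the later days, and day 3 was lower than day 1 by a log2 fold change of −0.76 ± 0.27 (edgeR adjusted p = 0.0404), a call lost in 14 of 35 alternatives.

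Hk3, a hexokinase of myeloid cells, rose in AM at days 1 and 3. Its levels in BM were 333, 541, 331, 203 and 266 CPM at day 1, 280.5, 261, 219 and 528 at day 3 and 71.1, 65.4 and 134 at day 7. In AM they were 54.8, 47.1 and 45.8 CPM at day 0, 270.4, 275, 152 and 199 at day 1, 132, 244 and 209 at day 3 and 68.98, 59.4, 53.5 and 56.1 at day 7. AM days 1 and 3 lay above day 0 in every library, and both cell types were lower at day 7 than at day 3 in every library. The log2 fold changes in AM were 2.19 ± 0.34 at day 1 against day 0 (edgeR adjusted p = 7.27e-05), 1.98 ± 0.35 at day 3 against day 0 (edgeR adjusted p = 5.63e-04) and −1.71 ± 0.31 at day 7 against day 3 (edgeR adjusted p = 0.00159). In BM, day 7 against day 3 gave −1.84 ± 0.33 (edgeR adjusted p = 0.0016). Hk1, the hexokinase of most resting tissues, was higher in BM than in AM at day 1, with 77.6 to 158 CPM against 32.9 to 44.3 and a difference of 1.49 ± 0.26 log2 (edgeR adjusted p = 1.07e-04).

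Neutrophils also express Hk3 and glycolytic enzymes, and the summed level of their markers moved with these groups. The summed level of 14 neutrophil markers in BM was 677 to 1829 CPM at day 1, 621 to 5369 at day 3 and 170 to 514 at day 7, with Elane at 0 throughout. In AM the sum was 75.7 to 94.4 CPM at day 0, 1051 to 2044 at day 1, 596 to 1179 at day 3 and 86.6 to 126 at day 7. Lcn2, which LPS-treated macrophages also make, gave 588 to 1813 CPM of the day 1 sum, S100a9 gave 28.01 to 286.5, Ly6g was at most 1.32, and Camp, Elane and Mpo were at 0. Of the 12 neutrophil markers tested, 4 rose at AM day 1 against day 0 (Lcn2, S100a9, Mmp9 and S100a8) and 0 fell. Mmp8 lay lower in every day 1 library, with a median of 11.9 CPM in AM day 1, against 30.8 in AM day 0, and was not called, and Cxcr2 had a median of 7.05 CPM in AM day 1, against 8.90 in AM day 0. Of 15 monocyte markers, none at 0 in a whole group, 9 were called higher (3.22% of all genes) and 1 lower (3.06%) at AM day 1 against day 0. Their sum in AM was highest at day 3, with 621 to 693 CPM at day 0, 1583 to 2137 at day 1, 3363 to 11616 at day 3 and 1305 to 1798 at day 7. The highest of these, AM_day3.2 with 11616 CPM, also had the highest Pfkl of the AM day 3 libraries and the highest level of 8 of the 9 chain enzymes from Gpi1 to Ldha, all but Gapdh. The part of these other cells' RNA in the rise of the glycolytic genes was not tested.

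At the phosphofructokinase step, where glycolysis is committed, Pfkl rose in AM and the balance of the isozymes moved with it. Pfkl, the liver-type subunit, had 50.6, 44.2 and 56.8 CPM in AM day 0, 249, 207, 263 and 262 in AM day 1, 271, 385 and 189 in AM day 3 and 90.3, 87.03, 69.6 and 74.6 in AM day 7. Pfkp, the platelet-type subunit, had 288, 325 and 285 CPM in AM day 0, 383, 368, 282 and 439 in AM day 1, 264, 229.8 and 228 in AM day 3 and 280.4, 308, 325 and 298 in AM day 7. All AM day 1 and day 3 libraries had more Pfkl than all AM day 0 and day 7 libraries, while Pfkp overlapped between days 0, 1 and 7. Pfkl rose by 2.28 ± 0.40 log2 at day 1 (edgeR adjusted p = 4.36e-04) and 2.48 ± 0.42 at day 3 against day 0 (edgeR adjusted p = 4.48e-04). It fell at day 7 against day 3, with a log2 fold change of −1.81 ± 0.37 (edgeR adjusted p = 0.0064). Pfkp was called in none of the 5 AM comparisons. Per kilobase of exon, the share of Pfkl in the phosphofructokinase sum was 61.7% to 80.8% on BM day 1, 32.6% to 81.3% on BM day 3, where BM_day3.1 was lowest, and 48.2% to 64.7% on BM day 7. In AM its share was 21.1% to 28.1% in day 0, 52.5% to 62.6% in day 1, 61.5% to 75.9% in day 3 and 29.3% to 38.6% in day 7. In AM days 1 and 3 all libraries had a higher share than on days 0 and 7. At day 1 the ranges of AM and BM overlapped only between 61.7% and 62.6%. Without division by length the AM shares were lower, 11.9% to 16.5%, 35.9% to 47.5%, 45.1% to 62.2% and 17.5% to 24.2%. Pfkm, the muscle-type subunit, stayed at or under 26.3 CPM in every library and was called nowhere. BM was lower than AM in Pfkp at day 1, −0.66 ± 0.22 (edgeR adjusted p = 0.0257), with overlapping groups, and that call was lost in 7 of 35 alternatives.

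The PFKFB enzymes set the level of fructose 2,6-bisphosphate, the activator of phosphofructokinase. Pfkfb3, the form with the strongest kinase activity, had 354, 446, 296, 384 and 317 CPM in BM day 1, against 83.5, 44.5, 178 and 70.03 in AM day 1. Every BM library was above every AM library, and the difference was 1.93 ± 0.29 log2 (edgeR adjusted p = 1.32e-05). Pfkfb4 moved the other way in AM, with 83.9, 66.1, 66.02 and 93.5 CPM at day 1, against 199, 158 and 165 at day 0. No library overlapped, and Pfkfb4 was the single member that fell at AM day 1, with a log2 fold change of −1.17 ± 0.27 (edgeR adjusted p = 0.00672). By AM day 7 it stood at 178, 205, 215 and 191 CPM, overlapping day 0. Per kilobase, Pfkfb3 made up 69.04% to 88.2% of the pair in BM day 1, against 30.3% to 63.5% in AM day 1, and 36.7% to 52.6% in BM day 7, against 15.4% to 18.2% in AM day 7. In BM day 3 Pfkfb3 was lower than in BM day 1, a log2 fold change of −1.14 ± 0.28 (edgeR adjusted p = 0.00541).

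**Figure D3:**
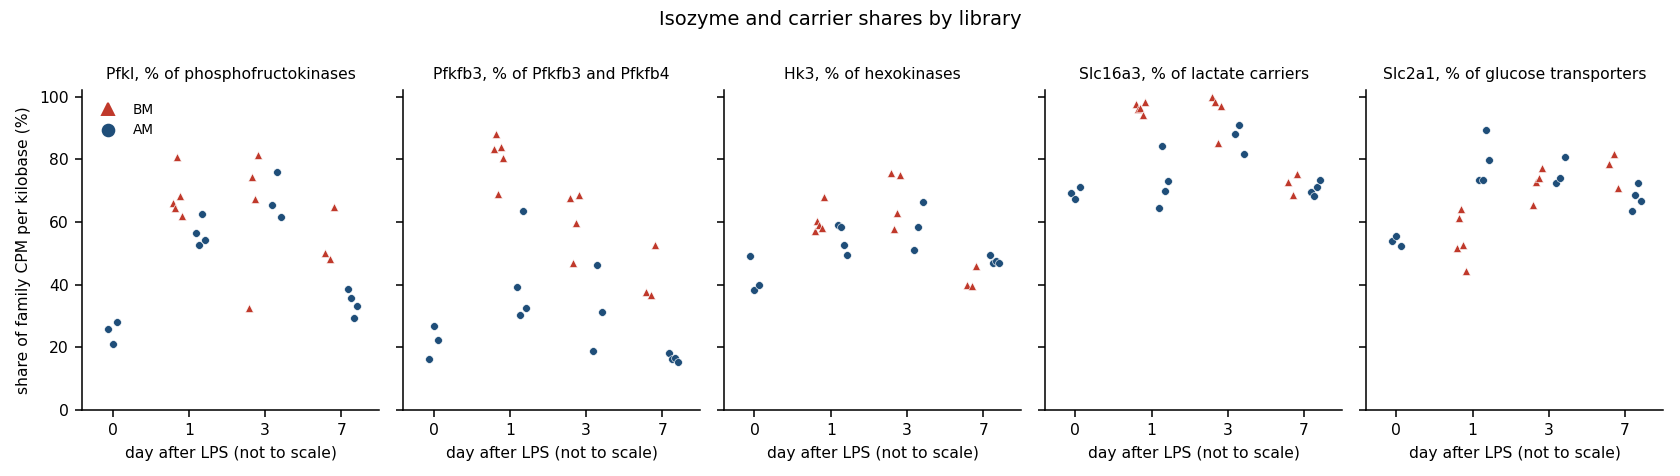
Share of 1 member in the summed CPM per kilobase of its family, by day after LPS, 1 point per library (triangles BM, left; circles AM, right). The share of Pfkl is higher in all AM day 1 and day 3 libraries than in all AM day 0 and day 7 libraries, and the share of Slc16a3 is above 94% in all BM day 1 libraries.

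Per kilobase of exon, Aldoa (aldolase A, which splits the six-carbon sugar) had the highest mean of the 35 members in 6 of the 7 groups, and Pkm was highest in BM day 1. Both belong to the 9 enzymes of the chain from glucose 6-phosphate to lactate. The pentose phosphate gene Taldo1 had the next highest mean after Aldoa in AM day 0 and AM day 7. Of the 9 chain enzymes, 5 rose at AM day 1 against day 0 (3.22% of all genes) and 6 at AM day 3 against day 0 (1.78%), and 6 fell at AM day 7 against day 3 (1.35%). In BM, 7 rose at day 3 against day 1 (10.6% of all genes) and 7 fell at day 7 against day 3 (0.898%). The single chain enzyme called lower at BM day 3 was Gapdh, whose own count is not a measure of its level here, as described below. In BM the summed CPM of the 9 was 4165 to 6590 on day 1, 7053 to 12222 on day 3 and 3719 to 5002 on day 7. In AM it was 3485 to 4275 at day 0, 6199 to 7433 at day 1, 6841 to 9556 at day 3 and 4058 to 4516 at day 7.

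Pkm encodes pyruvate kinase, the last step to pyruvate. It had 1578, 1888, 1239.5, 1643 and 1154 CPM in BM day 1, 3125, 2408, 1922 and 3964 in BM day 3 and 835, 784 and 1185 in BM day 7. In AM it had 804, 846 and 884 CPM at day 0, 1524, 1542, 1509 and 1326 at day 1, 1537, 2621 and 1870.1 at day 3 and 1061, 933, 849 and 889 at day 7. The BM day 3 libraries were above all BM libraries of other days, and AM days 1 and 3 were above AM days 0 and 7. Pkm rose in AM by 0.80 ± 0.21 log2 at day 1 (edgeR adjusted p = 0.0194) and 1.25 ± 0.23 at day 3 against day 0 (edgeR adjusted p = 8.90e-04). In BM it was higher at day 3 than at day 1 by 0.93 ± 0.18 (edgeR adjusted p = 6.55e-04) and lower at day 7 than at day 3, −1.61 ± 0.22 (edgeR adjusted p = 9.58e-05). Counts per gene do not separate the splice forms of Pkm.

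Ldha encodes the lactate dehydrogenase subunit that favours lactate formation. Its levels in BM were 534, 727, 358, 596 and 408 CPM at day 1, 761, 731, 783 and 1098 at day 3 and 420.2, 419 and 426 at day 7. In AM they were 469, 506 and 585 CPM at day 0, 1287, 1359.9, 1022 and 1057 at day 1, 1037, 1196 and 889 at day 3 and 560.2, 538, 557 and 538 at day 7. At day 1 every BM library lay below every AM library, the reverse of Slc16a3. The difference was −1.17 ± 0.17 log2 (edgeR adjusted p = 5.52e-06), and Ldha was lower in BM at that day in all 35 alternatives. In AM it rose by 1.19 ± 0.20 log2 at day 1 against day 0 (edgeR adjusted p = 1.94e-04). Aldoa was likewise lower in BM than in AM at day 1, −0.92 ± 0.15 (edgeR adjusted p = 2.89e-05), with 929.9, 1083, 781, 819.9 and 584 CPM in BM, against 1597, 1821, 1333 and 1591 in AM. Neither gene was called between BM and AM at day 3 or day 7.

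Eno1 (enolase) rose in AM by 1.53 ± 0.23 log2 at day 1 (edgeR adjusted p = 5.10e-05), with 1151, 1277, 1143 and 981 CPM, against 357, 359 and 466 at day 0. Pgk1 (phosphoglycerate kinase, the first step that returns ATP) rose by 1.54 ± 0.27 (edgeR adjusted p = 3.61e-04), with 335, 406, 343 and 304 CPM at AM day 1, against 115, 114 and 128 at AM day 0. Neither gene's day 1 libraries overlapped those of day 0. Tpi1 (triosephosphate isomerase) rose at both days against AM day 0, by 1.12 ± 0.24 at day 1 and 1.73 ± 0.26 at day 3, with adjusted p-values of 0.00334 and 7.38e-05 by edgeR's test. Pgam1 (phosphoglycerate mutase) was called in AM at day 3, 1.67 ± 0.36 (edgeR adjusted p = 0.00581), and Gpi1 (glucose 6-phosphate isomerase) and Aldoa were not called against day 0 at either day. In AM at day 7 against day 3, Gpi1, Tpi1, Pgk1, Eno1, Pkm and Ldha fell, with log2 fold changes from −1.30 ± 0.26 (Pgk1) to −0.67 ± 0.17 (Gpi1, lost in 21 of 37 alternatives). In BM at day 7 against day 3 the same 6 and Aldoa fell, from −1.61 ± 0.22 (Pkm) to −0.67 ± 0.17 (Aldoa). The edgeR test of whether BM and AM changed differently between those days called 0 of the 9, with 0 at an unadjusted p under 0.05 and 0 by DESeq2.

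In BM at day 3 against day 1, 7 of the 9 chain enzymes rose (10.6% of all genes). The largest rises beside Pkm were Pgam1 (1.26 ± 0.29), Aldoa (1.08 ± 0.15) and Gpi1 (0.93 ± 0.15), with adjusted p-values of 0.00258, 7.37e-06 and 6.81e-05 by edgeR's test. With the 2 groups fitted alone, Pgam1, Tpi1, Pgk1 and Ldha lost their calls. Their adjusted p-values by edgeR's test were then 0.0602, 0.22, 0.164 and 0.143. Pkm, Aldoa and Gpi1 stayed called, and all 7 kept their sign. Pgam1 had 422, 251, 209 and 424 CPM in BM day 3, against 174, 188, 51.9, 144 and 124 in BM day 1 with no overlap. Of the 5 carriers, 3 were called lower between the same days (15.2% of all genes), Slc2a6 among them, and Slc2a3 and Slc16a1 were not called. Slc2a1 was lower at BM day 3 than at day 1 by a log2 fold change of −1.01 ± 0.25 (edgeR adjusted p = 0.00538; −1.10 ± 0.33, edgeR adjusted p = 0.0597 with the 2 groups fitted alone) and Slc16a3 by −1.19 ± 0.23 (edgeR adjusted p = 4.82e-04). At BM day 7 against day 3, Slc16a3 fell again, with a log2 fold change of −1.13 ± 0.26 (edgeR adjusted p = 0.0117).

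The number of these falls that passed the test varied with the fit. Without AM_day3.2, 3 of the 11 falls at AM day 7 against day 3 were called. When Y-linked RNA was added to the fit as a covariate 0 were called, with log2 fold changes of −1.72 (Mif) to −0.58 (Gpi1) and SEs of 0.26 to 0.56, against −1.81 (Pfkl) to −0.67 (Gpi1) without it. All 11 kept their sign in both settings. In BM, day 7 against day 3 gave 6 calls without BM_day7.1, 6 without BM_day7.2 and 0 when the 2 groups were fitted alone. In that last fit the log2 fold changes were −1.85 (Hk3) to −0.68 (Aldoa), against −1.84 (Hk3) to −0.67 (Aldoa) with all groups, and the adjusted p-values from edgeR were 0.0964 to 0.196. Alveolar macrophage markers rose in BM between the same days (12 of 16 called higher, against 3.09% of all genes), and their part in the falls was not tested.

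Gapdh (glyceraldehyde 3-phosphate dehydrogenase) cannot be read from its own row in these files. The genome holds 90 copies at least 95% identical to it over 200 bases or more, and together they took 91492 counts against 22555 for Gapdh itself. Gapdh's own levels were 96.2, 132, 117, 73.1 and 105 CPM in BM day 1, against 17.4, 44.9, 45.6 and 40.2 in AM day 1, and edgeR called it higher in BM by 1.50 ± 0.34 log2 (edgeR adjusted p = 0.00177). Gapdh held 48.3% to 73.6% of the sum of itself and its copies in BM day 1 libraries and 7.51% to 24.3% in all other libraries. Reads counted to Gapdh or its copies summed to 143 to 243 CPM in BM day 1, against 232 to 283 in AM day 1. How reads that fit several copies equally well were counted was not examined, so the sum may miss part of Gapdh's RNA. On the log2 scale that sum differed by −0.46 (BM minus AM), the opposite sign, with p = 0.0476 by a two-sided exact permutation test (5 against 4 libraries, adjusted p = 0.0952 over 2 comparisons). For BM day 3 against day 1 the sum differed by 0.17, while Gapdh alone was called lower, −1.68 ± 0.35 (edgeR adjusted p = 0.00108); the exact permutation p of the sum was 0.667. BM day 1 libraries carry a name prefix of their own, and its part in the split of reads was not tested. For other members with copies, most counted reads went to the member: Eno1 was 91.4% to 98.9% of the sum with its copies in every library, and Bnip3 at least 84.2%. Any reads left uncounted because they fit both would not show in these shares.

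**Figure D4:**
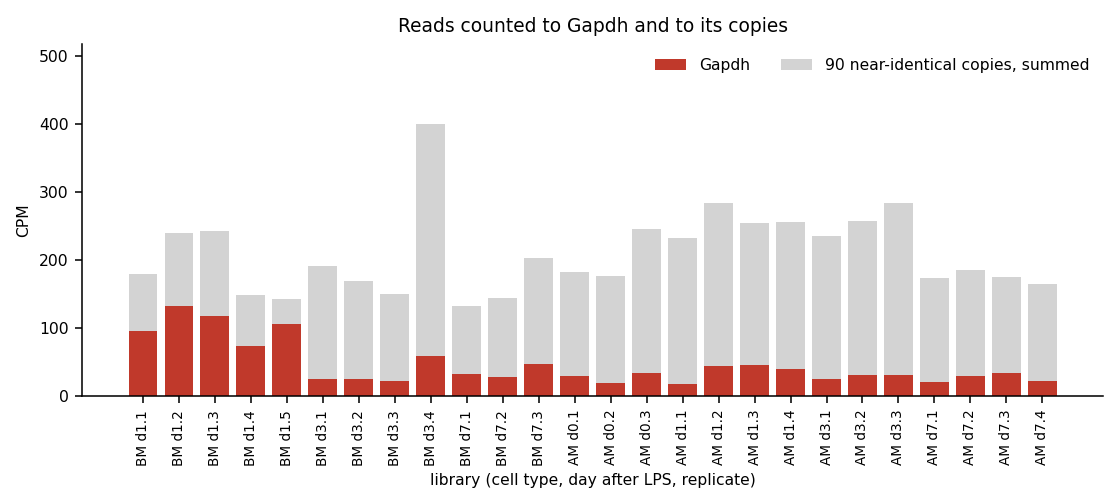
Stacked bars of the CPM counted to Gapdh (red) and to its 90 near-identical copies (grey) in each library, BM left of AM and days in order. Gapdh takes 48.3% to 73.6% of the stack in the 5 BM day 1 libraries and at most 24.3% elsewhere, while the height of the stacks in BM day 1 is within the range of the other groups.

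Among the hypoxia genes, Hif1a, which encodes the oxygen-regulated subunit of HIF-1, was higher in BM than in AM at day 1. It had 357, 467, 214, 189 and 116 CPM in BM day 1, 164, 207, 239 and 264 in BM day 3 and 179, 187 and 408 in BM day 7. In AM it had 86.1, 94.6 and 82.4 CPM at day 0, 141, 129, 129.8 and 130.1 at day 1, 156, 204 and 179 at day 3 and 190.1, 187, 148 and 166 at day 7. All AM libraries after LPS were above all day 0 libraries, and BM day 1 spread widely, with BM_day1.5 below every AM day 1 library. The BM to AM difference at day 1 was 1.02 ± 0.28 log2 (edgeR adjusted p = 0.00843). The differences of AM day 3 and AM day 7 to day 0, 1.04 ± 0.34 and 0.98 ± 0.32, were not called, with adjusted p-values of 0.139 and 0.31 by edgeR's test. HIF-1 is regulated mainly through protein stability, which these counts do not measure.

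Bnip3, a mitophagy receptor and a HIF target, had 26.5, 57.3 and 27.8 CPM in AM day 3, against 9.81, 3.36, 0.521 and 3.69 in AM day 1. No library overlapped and the gene was called, 3.09 ± 0.76 log2 (edgeR adjusted p = 0.0483), though the call was lost in 25 of 37 alternatives. Slc16a3 was the other member called between those days, 1.05 ± 0.25 (edgeR adjusted p = 0.0402), lost in 14. Without AM_day3.2 both were lost, with 2.64 ± 0.85, edgeR adjusted p = 0.355 for Bnip3 and 0.84 ± 0.27, edgeR adjusted p = 0.373 for Slc16a3. Pdk1, a mitochondrial kinase that inhibits pyruvate dehydrogenase, had 35.8, 80.4 and 33.5 CPM in AM day 3, against 11.4, 9.53, 11.2 and 13.9 in AM day 1, and was not called (edgeR adjusted p = 0.273). Egln3, a prolyl hydroxylase that HIF itself induces, had 7.31, 25.5 and 5.85 CPM in AM day 3, against 0, 6.89, 0 and 0 in AM day 1. All 3 genes were highest in AM_day3.2 among AM libraries, the library with the most monocyte-marker RNA.

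In BM, Egln3 was 7.44, 19.01, 40.2, 9.76 and 8.66 CPM at day 1, 42.9, 17.8, 12.4 and 11.6 at day 3 and 3.09, 3.43 and 13.8 at day 7, above every AM library of the same day at days 1 and 7. It was not called at day 1 (edgeR adjusted p = 0.0759) or day 7 (edgeR adjusted p = 0.241). P4ha1, a prolyl hydroxylase of collagen synthesis and a HIF target, was higher in BM at day 1, with 123, 131, 135, 111 and 134 CPM, against 61.7, 74.4, 31.9 and 77.03 in AM. The difference was 1.05 ± 0.23 log2 with no overlap (edgeR adjusted p = 0.00126). Pdk1 was higher in BM at day 3 than at day 1, with 136, 34.2, 57.7 and 97.5 CPM, against 33.2, 23.9, 0, 26.7 and 26.5. Its log2 fold change was 1.88 ± 0.70 (edgeR adjusted p = 0.0476), and the call was lost in 29 of 35 alternatives. Adm (adrenomedullin, a vasodilator peptide) had 65.9 CPM in BM_day3.1 and 0 in the other 3 BM day 3 libraries and all AM day 3 libraries. BM_day3.1 is the library with 27619 CPM of endothelium and fibroblast markers, and their part in the Adm reads was not tested. Egln1, the main HIF prolyl hydroxylase, and Ankrd37, a HIF target with at most 10.9 CPM, were called in no comparison. Mif, a cytokine and HIF target, had 95.8, 107, 162 and 88.4 CPM at AM day 1, against 34.8, 31.8 and 56.99 at AM day 0. It rose by 1.46 ± 0.38 at day 1 (edgeR adjusted p = 0.0155, lost in 3 of 36 alternatives). At AM day 3 against day 0 its rise of 1.46 log2 (edgeR adjusted p = 0.0412) was lost in 13 of 36 alternatives. It fell at AM day 7 against day 3, −1.53 ± 0.36 (edgeR adjusted p = 0.0194, lost in 6 of 37 alternatives). In BM it was higher at day 3 than at day 1 by 0.94 ± 0.32 (edgeR adjusted p = 0.031), a call lost in 6 of 35 alternatives.

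Of the 4 pentose phosphate genes, Pgd and Taldo1 were lower in BM than in AM at day 1 and Taldo1 at day 7, and in AM none of the 4 was called by edgeR in the 5 comparisons of days. In those comparisons 0 to 2 of the 4 had an unadjusted p under 0.05, and DESeq2 called 1 at AM day 3 against day 0 and 0 in the others. Their summed level in BM was 1124 to 1338 CPM at day 1, 1395 to 1767 at day 3 and 1224 to 1407 at day 7. In AM the sum was 1616 to 1989 CPM at day 0, 1598 to 1993 at day 1, 1817 to 2038 at day 3 and 1914 to 2084 at day 7. On each of days 1, 3 and 7 all BM sums lay below all AM sums.

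Taldo1 (transaldolase, which returns pentose carbon to glycolysis) had 221, 282, 245, 246 and 272 CPM in BM day 1, 638, 376, 411 and 357 in BM day 3 and 419, 451 and 278 in BM day 7. In AM it had 680.1, 654 and 832 CPM at day 0, 434, 558, 451 and 509 at day 1, 550.1, 533 and 599 at day 3 and 722, 729, 729 and 733 at day 7. BM lay below AM in every library at days 1 and 7, and AM day 1 lay below AM day 0. Taldo1 was lower in BM than in AM at day 1 by a log2 fold change of −0.95 ± 0.16 (edgeR adjusted p = 4.76e-05) and at day 7 by −0.93 ± 0.18 (edgeR adjusted p = 0.00351). Without BM_day7.3 the day 7 value was −0.75 ± 0.19, edgeR adjusted p = 0.0549. In AM the difference between day 1 and day 0 was −0.56 ± 0.18 and missed the threshold (edgeR adjusted p = 0.0582).

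G6pdx encodes glucose 6-phosphate dehydrogenase, the enzyme that commits glucose to the pathway. It had 139, 152, 97.04, 211 and 113 CPM in BM day 1, 139.9, 210.3, 124 and 162 in BM day 3 and 91.6, 81.3 and 87.4 in BM day 7. In AM it had 159, 139 and 139.6 CPM at day 0, 176, 162, 121 and 193 at day 1, 135, 167 and 202 at day 3 and 144, 145, 121 and 130 at day 7. The AM groups overlapped on all days after LPS, and the 3 BM day 7 libraries were the lowest of all 26. The fall in BM at day 7 against day 3 was −0.87 ± 0.23 log2 (edgeR adjusted p = 0.0298) and lost its call in 8 of 37 alternatives. Pgd (6-phosphogluconate dehydrogenase, the second NADPH-yielding step) was lower in BM at day 1, with 327, 352, 364, 320.1 and 287 CPM, against 592, 630.1, 429.7 and 548 in AM, a difference of −0.74 ± 0.15 (edgeR adjusted p = 7.31e-04). Pgd and Taldo1 were both higher at BM day 3 than at BM day 1, by 0.73 ± 0.15 (edgeR adjusted p = 0.00148) and 0.82 ± 0.16 (edgeR adjusted p = 5.43e-04). Tkt (transketolase) was called in no comparison, with library values between 369 and 643 CPM, the narrowest range of the 4 in relative terms.

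**Figure D5:**
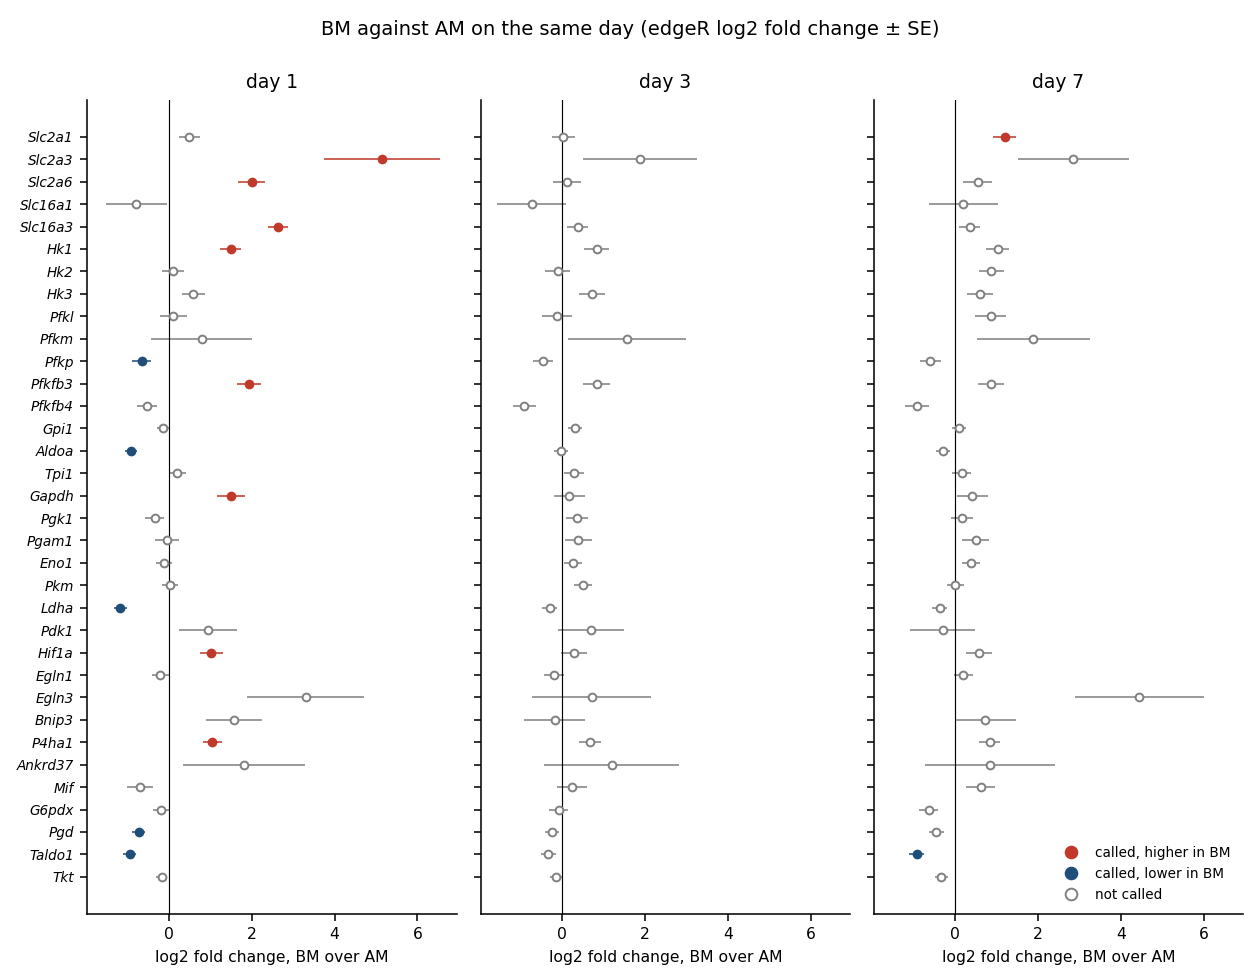
edgeR log2 fold change of BM over AM (± SE) for 34 members at days 1, 3 and 7; filled points are called (adjusted p under 0.05), and Adm is left out because its AM day 3 libraries are all at 0. Of the points shown, 13 are called at day 1, 0 at day 3 and 2 at day 7.

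Other genes of these pathways, taken from lists of non-members, were counted in the same fit. At AM day 1 against day 0, edgeR called 0 of 26 tested glycolysis and sugar-handling genes (4 at an unadjusted p under 0.05) and 0 of 8 pentose phosphate genes (0 at an unadjusted p under 0.05), where 3.22% of all genes were called higher and 3.06% lower. Of 30 tested HIF pathway and target genes, 3 rose and 2 fell. Edn1 (endothelin 1) was 39.3 to 74.7 CPM in AM day 1, against 0.452 to 0.740 in AM day 0, and Ak4 (a mitochondrial adenylate kinase) was 10.3 to 17.5, against 0.0847 to 0.646. Mxi1, a MYC antagonist, fell, with 16.8 to 37.3 CPM in AM day 1, against 59.9 to 67.5 in AM day 0. At AM day 3 against day 0, where 1.78% of all genes were called higher and 0.723% lower, the HIF list had 0 rises and 1 fall, with 8 of its 30 genes at an unadjusted p under 0.05. H6pd (the hexose 6-phosphate dehydrogenase of the endoplasmic reticulum) was the single pentose phosphate gene called, with 61.9 to 145 CPM in AM day 3, against 26.3 to 40.3 in AM day 0.

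Between BM and AM at day 1 the HIF list had 11 higher and 6 lower of 30 tested, where 15.2% and 13.8% of all genes were called higher and lower. Vegfa, the angiogenic growth factor and a HIF target, was 111 to 588 CPM in BM, against 0 to 29.4 in AM, a log2 fold change of 4.57 ± 0.88 (edgeR adjusted p = 4.67e-04). P4ha2 was 0 in all AM day 1 libraries and at most 10.8 CPM in BM day 1, and Plod2 was 0 in all BM day 1 libraries. Vegfa was also called higher in BM at day 7, 3.99 ± 0.89 (edgeR adjusted p = 0.0153), while at day 3 the HIF list had 0 higher (0.997% of all genes) and 2 lower (2.99%). Of 8 further pentose phosphate genes 0 were higher and 3 lower in BM at day 1: Prps1 (ribose phosphate pyrophosphokinase), Rpia (ribose 5-phosphate isomerase) and Pgls (6-phosphogluconolactonase). Rpia was 6.35 to 33.5 CPM in BM day 1, against 55.9 to 114 in AM day 1. Of 14 genes of pyruvate entry into mitochondria 0 were higher and 4 lower in BM at day 1, among them Mpc1, a subunit of the mitochondrial pyruvate carrier, at 0 to 8.13 CPM in BM, against 26.5 to 51.7 in AM. Pdk4, a pyruvate dehydrogenase kinase, was 0 to 3.00 CPM in BM, against 5.61 to 25.6 in AM. Of 26 further glycolysis and sugar-handling genes 1 was higher and 5 lower in BM at day 1.

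Within groups, some libraries stood out across several members. In BM day 7, BM_day7.3 had the highest level of 29 of the 35 members, Slc2a1, Hk2, Pfkl, Pkm and Hif1a among them, and it is the BM day 7 library with the least alveolar macrophage and the most monocyte marker RNA (31376 CPM, against 14309 and 14646). In AM day 3, AM_day3.2 had the highest level of 23 members. In BM day 3, BM_day3.4 was highest in 18 members, including all 9 chain enzymes. How often these libraries were highest over all genes was not counted, so the counts cannot be read as particular to the members. The part of other cells in these spreads was not tested.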

How the data were processed

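Poly(A)-selected, stranded RNA libraries of 26 samples in 7 groups were sequenced, per the labels' protocols. The authors deposited raw counts of reads per Ensembl gene for all libraries in 1 table; per the submitters' processing notes, HISAT2 2.1.0 and featureCounts 2.0.0 were used with GRCm38, after Trimmomatic 0.39 and FastQC 0.11.9. The strand setting and annotation release used for counting are not given in the sources used here. Symbols, exon lengths and copies came from GENCODE transcripts of GRCm38, and near-identical copies were transcripts matched by blastn at 95% identity or more over 200 bases. The members and lists were chosen with earlier results of these data known.

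Counts were scaled by TMM and filtered with filterByExpr at a minimum count of 10, which left 17143 genes with 99.9% of counts. All groups were fitted together with edgeR 4.0.16 (R 4.3.3, robust quasi-likelihood F test), with Benjamini-Hochberg adjustment over all 17143 genes and a threshold of 0.05, in 12 comparisons. The fit was run on counts simulated with the same spread for every gene and changes in BM day 7 alone. That run checks the code and does not match the spread of these libraries. The text names, per comparison and role, at most 4 called members by size of change, with the always-named Slc2a1, Hk2, Hk3, Gapdh, Pkm, Ldha, Hif1a and G6pdx, and uncalled members were named with their values. Of the other pathway lists, genes with the largest called changes were named. Libraries with the same replicate number did not deviate together (mean correlation of deviations from the group means −0.0199 to 0.0134), and no label pairs them. Alternatives were DESeq2 1.42.0, other scalings and filters, fits of the compared groups alone, a replicate block, a library-number term and each library left out. A Y-linked covariate and the omission of 2 libraries with few genes detected were added after seeing the data.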

Additional observations from a re-analysis of the deposited data

Results flagged for a closer look

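In 12 of 140 tests of 1 gene in 1 group, the highest or lowest library stood apart from the rest by Dixon's criterion, which chance meets in about 1 in 20 groups. For the flags of Adm and Egln3 all other libraries of the group were at 0, where that rate does not apply. Whether the number of flags exceeds chance was not tested. In AM day 1, AM_day1.1 had the lowest Gapdh, 17.4 CPM, against 40.2 to 45.6 in the other libraries, the highest Hif1a, 141 CPM, against 129 to 130.1, and the single Adm value above 0, 3.90 CPM. AM_day1.4 had the lowest Pkm of that group, 1326 CPM, against 1509 to 1542, and AM_day1.2 the single Egln3 value above 0, 6.89 CPM. In BM day 3, BM_day3.4 had the highest Eno1, 1842 CPM, against 1058 to 1155, and the highest Ldha, 1098 CPM, against 731 to 783. Adm was 65.9 CPM in BM_day3.1 and 0 in the other BM day 3 libraries. In BM day 1, Pdk1 was 0 in BM_day1.3, against 23.9 to 33.2 CPM in the others, and Adm was 3.57 CPM in BM_day1.4 and 0 in the rest. In AM day 7, Mif was 43.7 CPM in AM_day7.4, against 37.4 to 37.6, and Pgd was 608 CPM in AM_day7.1, against 537 to 546.

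The difference between BM and AM changed from day 1 to day 7 for Slc16a3, the lactate exporter, by −2.27 log2 in a test of that change itself (edgeR adjusted p = 7.71e-05). At day 1 all 5 BM libraries were above all 4 AM libraries, and at day 7 the 3 BM and 4 AM libraries overlapped. The BM day 1 libraries carry a name prefix of their own, which cannot be told apart from the group in this test.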

How the results depend on the processing

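All counts here are of the 35 members called. With DESeq2's Wald test, BM against AM gave 2 at day 3 and 6 at day 7, AM day 3 against day 0 gave 17, and the change of the BM to AM difference between days 1 and 7 gave 3. Over all genes that test called 1838, 604, 937 and 2302 of 17143 in the same order, against 683, 303, 430 and 1292 with edgeR. When the compared groups were fitted alone, BM against AM at day 7 gave 14, AM day 3 against day 0 gave 19, AM day 7 against day 0 gave 9, AM day 7 against day 3 gave 23, BM day 3 against day 1 gave 8, BM day 7 against day 3 gave 0 and the change of the BM to AM difference between days 1 and 7 gave 2. That last comparison also gave 2 with DESeq2 size factors, 3 with library size alone, 2 with no filter, 2 with the stricter filter and 5 without the 2 libraries with the fewest genes, BM_day1.3 and BM_day3.1. Leaving out these 2 libraries gave 4 for BM against AM at day 3 and 5 at day 7, and the stricter filter gave 1 at day 3. AM day 3 against day 1 gave 1 with DESeq2 size factors, 1 with no filter, 1 with the library-number term and 1 with the Y-linked covariate, with which AM day 7 against day 3 gave 0. The replicate numbers do not pair the libraries; as a replicate block, the title number gave 0 for AM day 3 against day 1 and moved no other count by over 1.5 times. A block of the description number could not be fitted for comparisons with BM day 1. Calls over all genes moved too. With the compared groups fitted alone, BM against AM at day 7 had 2948 of 14454 genes called, against 303 of 17143 with all groups. AM day 7 against day 0 had 2578 of 15267 against 116, and AM day 7 against day 3 had 2246 of 13568 against 272. AM day 3 against day 0 had 2327 of 14666 against 430. BM day 3 against day 1 had 1117 of 12587 against 4432, and BM day 7 against day 3 had 41 of 13312 against 683. The cause of these changes was not tested.

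With each of the 26 libraries left out in turn, the count was 12 to 15 for BM against AM at day 1, 0 to 1 at day 3 and 0 to 4 at day 7. In AM it was 8 to 14 for day 1 against day 0, 10 to 14 for day 3 against day 0, 0 for day 7 against day 0, 0 to 3 for day 3 against day 1 and 3 to 14 for day 7 against day 3. In BM it was 13 to 18 for day 3 against day 1 and 6 to 12 for day 7 against day 3. The changes of the BM to AM difference gave 0 from day 3 to day 7 and 1 to 3 from day 1 to day 7. The count for BM against AM at day 7 was 0 without BM_day7.3, 1 without AM_day7.1 or AM_day7.3 and 4 without BM_day1.3. Egln3 at AM day 1 against day 0 was 1.18 log2 and not called with all libraries, and ran from −7.09 without AM_day1.2 (edgeR adjusted p = 0.0331), the library with its single day 1 value above 0, to 2.31 without AM_day0.3. Depth limits genes with few counts such as Adm, Egln3 and Ankrd37.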
